A study of Mus musculus with 12 samples.

Results

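The genes described here are 10 genes of zinc handling, namely the metallothioneins Mt1 and Mt2, the metal sensor Mtf1, the zinc exporters Slc30a1 and Slc30a4, and the importers Slc39a4, Slc39a6, Slc39a8, Slc39a10 and Slc39a14. They were taken by name as 10 of the 22880 genes of a table of raw read counts, and all 10 passed the filter on low counts, as did 11291 genes in all. The table came from RNA sequencing of 4T1, a mouse mammary tumour cell line that spreads to the lung, in 4 groups of 3 libraries. The design sets cells with added Myb, which encodes the transcription factor c-Myb, against cells without it, and cells selected in the lung against unselected ones.

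MYBup cells had been transfected with the plasmid pcDNA3-mMyb, which carries mouse Myb, were not passaged in animals, and are labelled as having low lung metastatic activity. The mock cells carried the empty plasmid pcDNA3.1, were not passaged in animals, and are labelled normal in that activity. The lung3 cells were untransfected, had been passaged 3 times through lung in vivo, and are labelled high. The wt cells were untransfected, were not passaged in animals, and are labelled normal. Whether MYBup, mock and lung3 cells are clones or pools is not in the labels, and an effect of Myb or of the passages and a difference between lines cannot be told apart. Separate cultures are not named for the libraries of a group either. The p-values therefore measure how far these libraries scatter, and that scatter may be technical.

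Zinc enters the cytosol through transporters of the SLC39 (ZIP) family and leaves it, to the outside or into vesicles, through those of the SLC30 (ZnT) family. Metallothioneins are small cysteine-rich proteins that bind zinc and copper in the cytosol. The zinc finger protein MTF-1, encoded by Mtf1, senses free zinc, binds short DNA elements called metal response elements, and raises transcription of Mt1, Mt2 and Slc30a1, while in mouse it lowers that of Slc39a10. In the mammary gland zinc transport supplies milk, and Slc30a4 is the gene mutated in the mouse strain lethal milk.

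The promoters of Mt1, Mt2 and Slc30a1 are shown because these genes are textbook targets of MTF-1 and because their levels stood apart in the same mock library, as described further on. The sequences are from RefSeq on GRCm38.p6, run from 250 bases before to 50 bases after the RefSeq start site, and are written 5′ to 3′ on the gene's strand. Capitals mark matches to the core of the metal response element, TGCACNC or TGCGCNC, on either strand, and no match overlapped another. The windows are chr8:94178839-94179138 on the plus strand for Mt1, chr8:94172368-94172667 on the plus strand for Mt2 and chr1:191906531-191906830 on the plus strand for Slc30a1.
Mt1: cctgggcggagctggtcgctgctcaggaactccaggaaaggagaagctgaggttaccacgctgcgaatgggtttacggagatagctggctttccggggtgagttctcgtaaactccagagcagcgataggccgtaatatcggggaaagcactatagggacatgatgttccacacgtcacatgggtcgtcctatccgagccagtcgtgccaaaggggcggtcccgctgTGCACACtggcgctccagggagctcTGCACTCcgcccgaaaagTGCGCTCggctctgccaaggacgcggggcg
Mt2: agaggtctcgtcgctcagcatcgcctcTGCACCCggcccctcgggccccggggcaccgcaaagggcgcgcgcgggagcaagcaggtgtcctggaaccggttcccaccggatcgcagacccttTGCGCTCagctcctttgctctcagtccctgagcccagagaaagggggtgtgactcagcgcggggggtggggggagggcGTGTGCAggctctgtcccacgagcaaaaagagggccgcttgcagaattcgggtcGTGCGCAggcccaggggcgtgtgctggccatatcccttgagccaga
Slc30a1: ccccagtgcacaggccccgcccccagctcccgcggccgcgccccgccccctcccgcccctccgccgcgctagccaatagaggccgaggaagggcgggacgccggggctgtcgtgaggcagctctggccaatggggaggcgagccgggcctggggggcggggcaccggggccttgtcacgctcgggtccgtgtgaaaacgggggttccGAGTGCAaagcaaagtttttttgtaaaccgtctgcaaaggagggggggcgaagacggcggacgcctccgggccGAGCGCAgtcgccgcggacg

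Mt1 had 3 matches, all on its own strand, of which the first began 23 bases before the start site. Mt2 had 4 matches, with 2 on each strand, and Slc30a1 had 2, both on the other strand. Slc30a4 had 3 matches, all on the other strand. Windows were found for 7 of the 10 genes, and not for Slc39a4, Slc39a6 and Slc39a14. Mtf1 and both windows of Slc39a10 had 0 matches, and Slc39a8 had 1 match in 1 of its 2 windows. Of all 32851 RefSeq windows of this length, 25.7% held at least 1 match and 7.11% held 2 or more. A match is a description of the letters, and no binding was measured here. For Mt1 the RefSeq start lies upstream of those of 2 of the 3 GENCODE models, which begin at positions 94179211 and 94179241 of chromosome 8. For Mt2 it lies upstream of both GENCODE models, which begin at 94172664 and 94172860. The Mt1 window ends before both Mt1 starts named, and the Mt2 window before the second Mt2 start. Match positions are thus relative to the RefSeq starts only.

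**Figure D1:**
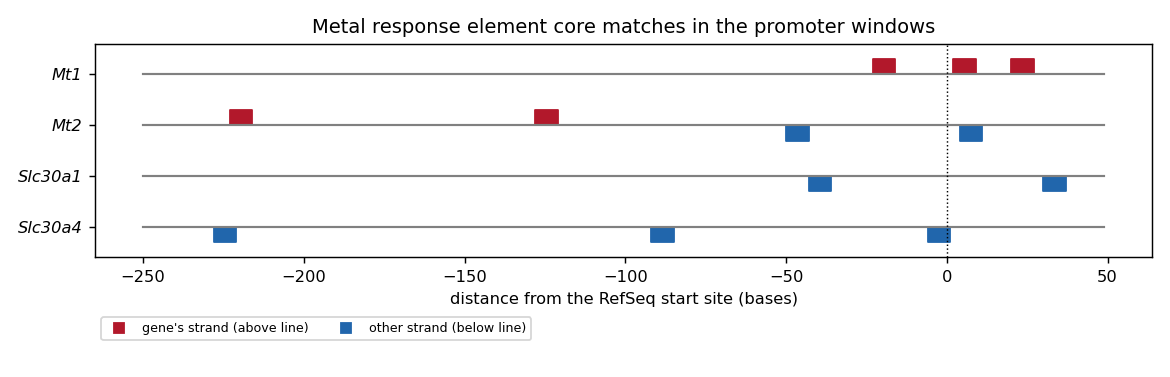
Matches to the metal response element core in the windows of Mt1, Mt2, Slc30a1 and Slc30a4. The horizontal axis is the distance from the RefSeq start site in bases; boxes above a line lie on the gene's strand and boxes below it on the other strand, so that the 3 matches of Mt1 stand above its line and the 2 of Slc30a1 below.

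The lowest total count was 8912989, in lung3 replicate 2, and the highest 24745660, in wt replicate 2. Levels are given as CPM, the count scaled to the library's size with TMM factors. Myb stood at 39.3, 42.9 and 39.8 CPM in MYBup libraries and at 5.17, 4.49 and 6.80 CPM in mock libraries, which fits the labels; the row sums reads of the plasmid and of the endogenous gene. The 6 epithelial markers summed to between 2570 and 3420 CPM in every library. Markers of leukocytes summed to at most 0.813 CPM with 2 of 6 at 0, those of endothelium to at most 1.80 CPM with 1 of 4 at 0, and those of lung epithelium to at most 0.208 CPM with 3 of 5 at 0. In MYBup and mock cells the endothelial reads were mostly of Tie1. Its counts summed to 40 in MYBup, 73 in mock, 8 in lung3 and 2 in wt libraries, and what lies behind that was not tested. Of 4 fibroblast markers, Lum and Thy1 had 0 counts and Dcn at most 2, so that their sum of 15.9 to 48.7 CPM was that of 1 gene, Pdgfra. It was higher in every MYBup and mock library than in any lung3 or wt library, and its part in the results was not tested. In bulk RNA a smaller share of cells with a gene on and less RNA per cell cannot be told apart.

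In MYBup against mock cells, 2 of the 10 genes passed the threshold, an adjusted p of 0.05 in edgeR's quasi-likelihood test with Benjamini-Hochberg adjustment over all 11291 genes. The importer Slc39a4 was higher in MYBup cells and the exporter Slc30a4 was lower. Over all tested genes 26.9% passed, 14.3% higher and 12.6% lower, so the count of 2 in 10 is near that background. It was 4 without mock replicate 3 and 1 without mock replicate 1, MYBup replicate 1 or MYBup replicate 3. The median log2 fold change of the 10 genes was 0.04, against 0.00 over all tested genes, and the median absolute log2 fold change was 0.44, against 0.21.

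In lung3 against wt cells, 1 of the 10 genes passed in the same fit, Slc39a4, which was higher in lung3 cells. Of all tested genes 5.36% passed, 2.91% higher and 2.44% lower, which is 605 genes, against 237 without wt replicate 1, 268 without wt replicate 2 and 294 without lung3 replicate 2. Without mock replicate 3 the count among the 10 was 2, with Slc30a1 added. The median log2 fold change of the 10 was 0.26, against 0.00 over all tested genes, and the median absolute value was 0.30, against 0.13. Same-numbered lung3 and wt libraries deviated together from their group means, and with the replicate number as a block in a fit on these 6 libraries 5 of the 9 genes tested passed. In that fit 17.9% of 11085 genes passed, 8.67% higher and 9.24% lower. The 5 were Mt1, Mt2, Slc30a1 and Slc39a4, all higher in lung3 cells, and Slc39a10, lower in lung3 cells. Slc39a8 had too few counts to enter that fit. The labels state no pairing, so the p-values of that fit rest on a pairing taken from these same data.

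The wt cells give a second reference for the transfected lines, and these comparisons share libraries with the ones above, so they are no independent evidence. In MYBup against wt cells 4 of the 10 genes passed, where 38.2% of all tested genes did, 19.4% higher and 18.7% lower. Slc30a1 and Slc39a8 were higher and Slc39a10 and Slc39a14 were lower in MYBup cells. The count fell to 2 without MYBup replicate 2, MYBup replicate 3 or wt replicate 1 and to 1 without MYBup replicate 1 or wt replicate 2. In mock against wt cells 7 of the 10 passed, where 35.9% of all tested genes did, 18% higher and 17.9% lower. Mt1, Mt2, Slc30a1 and Slc39a8 were higher and Slc39a4, Slc39a10 and Slc39a14 were lower in mock cells. For Mt1, Mt2 and Slc30a1, however, mock replicate 3 lay within the range of the wt libraries. The median absolute log2 fold change of the 10 genes in mock against wt cells was 1.18, against 0.24 over all tested genes.

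**Figure D2:**
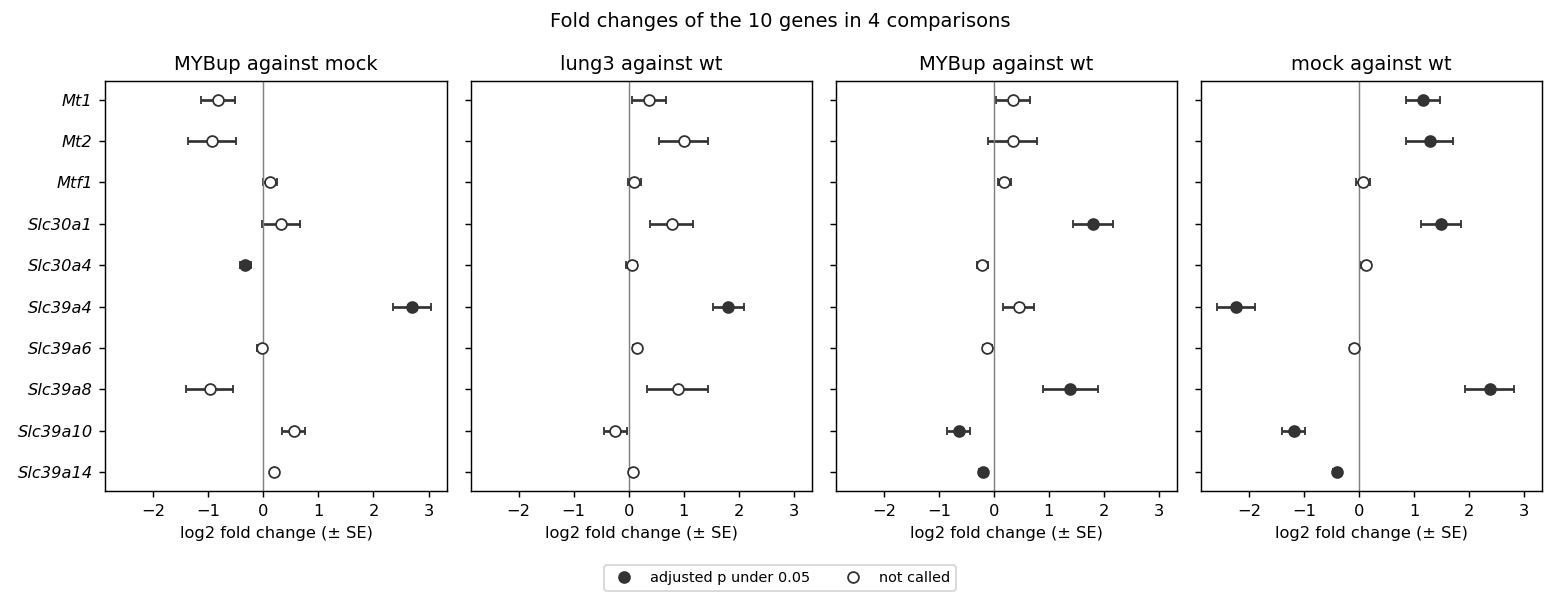
Log2 fold changes of the 10 genes, first-named group over second, with standard errors, in 4 comparisons of 3 libraries against 3 from the fit on all 12 libraries. Filled points passed an adjusted p of 0.05; Slc39a4 is filled to the right in MYBup against mock and in lung3 against wt and to the left in mock against wt, and 7 of 10 points are filled in mock against wt.

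Set against transcript length, the genes spanned over 2 orders of magnitude. In wt cells Slc39a10 stood at 51.5, Slc30a4 at 45.7, Slc39a14 at 29.7 and Slc39a6 at 19.3 CPM per kb of the longest coding transcript. Slc39a4 stood at 3.52, Mtf1 at 3.35, Slc30a1 at 1.41 and Slc39a8 at 0.164 CPM per kb in wt cells. Mt2 stood at 45.1 CPM per kb of its longest coding model in wt cells, and Mt1 at 25.4 with its longest model of 1085 bases but at 50.2 with its model of 549 bases, so these data do not order the 2 metallothioneins by level.

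The remaining members of the 3 families put these levels in context. Mt3, the brain metallothionein, had 8 counts in all 12 libraries together and Mt4, that of squamous epithelia, had 0. Of the 10 Slc30 genes 6 were tested, and the 4 below the filter had at most 1 count each over the 12 libraries. Of the 14 Slc39 genes 11 were tested, and the 3 below the filter had at most 10 counts each. The highest of the Slc39 genes per kb was Slc39a7, which moves zinc out of the endoplasmic reticulum, with 70.5 CPM per kb in wt cells.

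**Figure D3:**
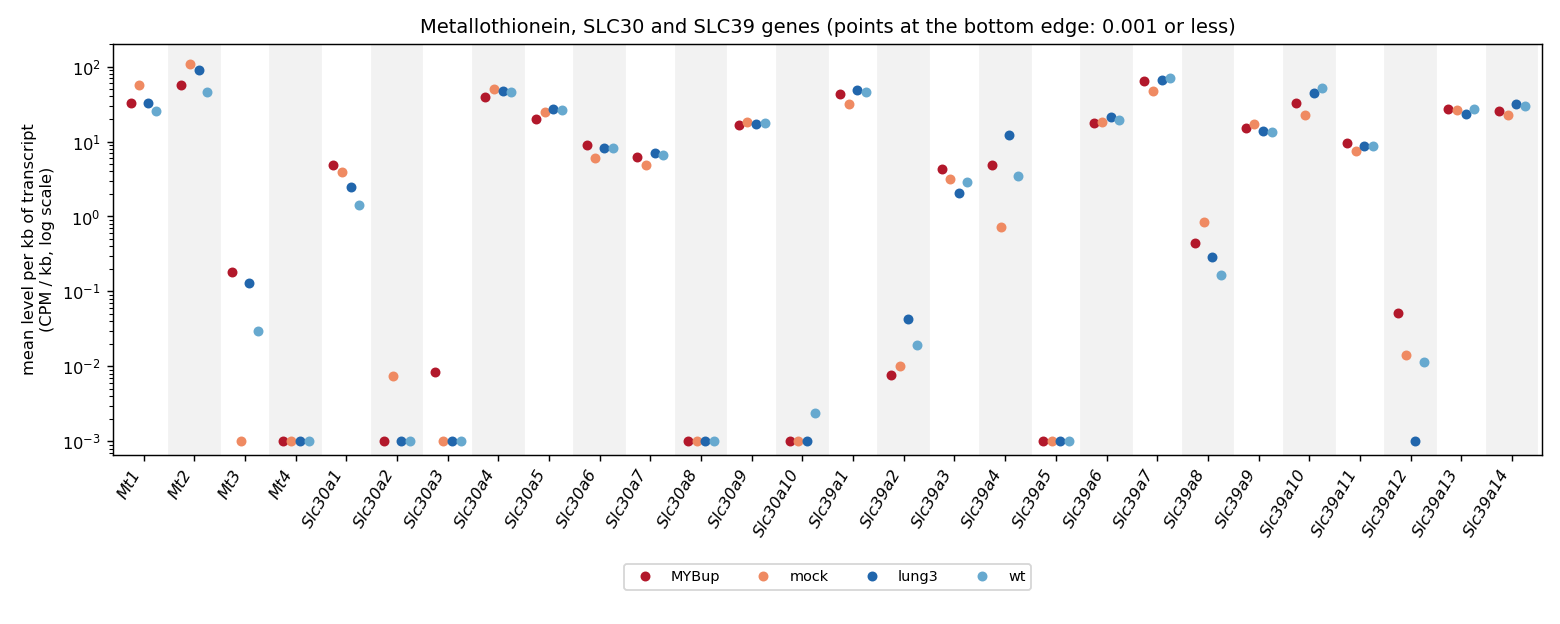
Mean CPM per kb of the longest coding transcript, on a log axis, of 4 metallothionein, 10 Slc30 and 14 Slc39 genes in MYBup, mock, lung3 and wt cells (mean of 3 libraries each; points on the bottom edge are at 0.001 or less). Slc39a4 spans from 0.724 in mock cells to 12.2 in lung3 cells, the widest span among the tested genes drawn, while Slc39a10, Slc30a4 and Slc39a7 stay between 22.5 and 70.5 in all 4 groups.

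The first metal buffer, Mt1 (ENSMUSG00000031765, chromosome 8, 94179082 to 94180327, plus strand, GRCm38), stood at 34.6, 33.4 and 36.9 CPM in MYBup libraries, against 72.6, 80.6 and 32.2 CPM in mock libraries. It stood at 46.6, 25.7 and 33.9 CPM in lung3 libraries, against 37.9, 26.1 and 18.7 CPM in wt libraries. Mock replicates 1 and 2 were thus above all other libraries, while mock replicate 3 lay among those of the other groups, so MYBup and mock libraries overlap. Means were 35.0 ± 1.77 CPM in MYBup cells, 61.8 ± 25.9 in mock cells, 35.4 ± 10.5 in lung3 cells and 27.6 ± 9.63 in wt cells (SD, n = 3 each). The log2 fold change was -0.82 (SE 0.31, adjusted p = 0.0634) in MYBup against mock cells and 0.37 (SE 0.31, adjusted p = 0.551) in lung3 against wt cells, and neither passed. Without mock replicate 3 the first became -1.12 (adjusted p = 0.00484). The difference of these effects was -1.19 (adjusted p = 0.0727), and it passed without mock replicate 3 (-1.50, adjusted p = 0.007) or wt replicate 1 (-1.49, adjusted p = 0.0413). In mock against wt cells Mt1 was higher, with a fitted log2 change of 1.16 (SE 0.31, adjusted p = 0.00994), while in MYBup against wt cells it was 0.34 (adjusted p = 0.406).

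Mt2 lies next to Mt1 on the same strand (ENSMUSG00000031762, chromosome 8, 94172664 to 94173568). It stood at 33.6, 25.9 and 28.2 CPM in MYBup libraries, against 68.4, 81.8 and 18.2 CPM in mock libraries. In lung3 libraries it stood at 63.7, 36.4 and 37.7 CPM, against 34.9, 20.2 and 14.0 CPM in wt libraries. Mock replicates 1 and 2 were again the highest of the 12 libraries, and mock replicate 3 lay below every MYBup library. Every lung3 library lay above every wt library. The log2 fold change was -0.94 (SE 0.44, adjusted p = 0.126) in MYBup against mock cells, and without mock replicate 3 it was -1.36 (adjusted p = 0.00615).

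In lung3 against wt cells Mt2 had a fitted log2 change of 1.00 (SE 0.44, adjusted p = 0.208), which did not pass in the fit on all libraries. With the replicate block it was 1.04 (SE 0.10, adjusted p = 3.9e-06), with lung3 over wt ratios of 1.83, 1.80 and 2.70 in the 3 same-numbered pairs. Since every lung3 library lay above every wt library, lung3 would stand above wt under any pairing. The blocked p-values here and below rest on a pairing taken from these same data. For Mt1 the blocked value was 0.39 (SE 0.12, adjusted p = 0.0338), with ratios of 1.23, 0.985 and 1.81. Mt2 was also higher in mock than in wt cells, with a fitted log2 change of 1.28 (SE 0.43, adjusted p = 0.0341). That call was lost without mock replicate 1 (adjusted p = 0.109), mock replicate 2 (0.116), wt replicate 2 (0.100) or wt replicate 3 (0.115), and also in limma voom (0.0746) and in a fit on the 6 libraries compared (0.0729). Mt2 was also the 1 gene of the 10 whose 2 main effects differed, by a log2 difference of -1.95 (SE 0.62, adjusted p = 0.0415) for MYBup against mock minus lung3 against wt. Over all tested genes 19.9% had such a difference, 10.4% higher and 9.52% lower. The call for Mt2 was lost in DESeq2 (adjusted p = 0.0502) and limma voom (0.0856). It was also lost without mock replicate 1 or 2, MYBup replicate 2 or 3, wt replicate 2 or 3, or any 1 lung3 library, with adjusted p between 0.0513 and 0.103.

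An annotated antisense gene, Gm45774, covers 432 of the 588 exonic bases of Mt2, and since no source used here gives a strand setting for the counting, reads of both genes may not be separated. Between Mt1 and Mt2 the longest identical stretch of annotated transcript was 20 bases.

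**Figure D4:**
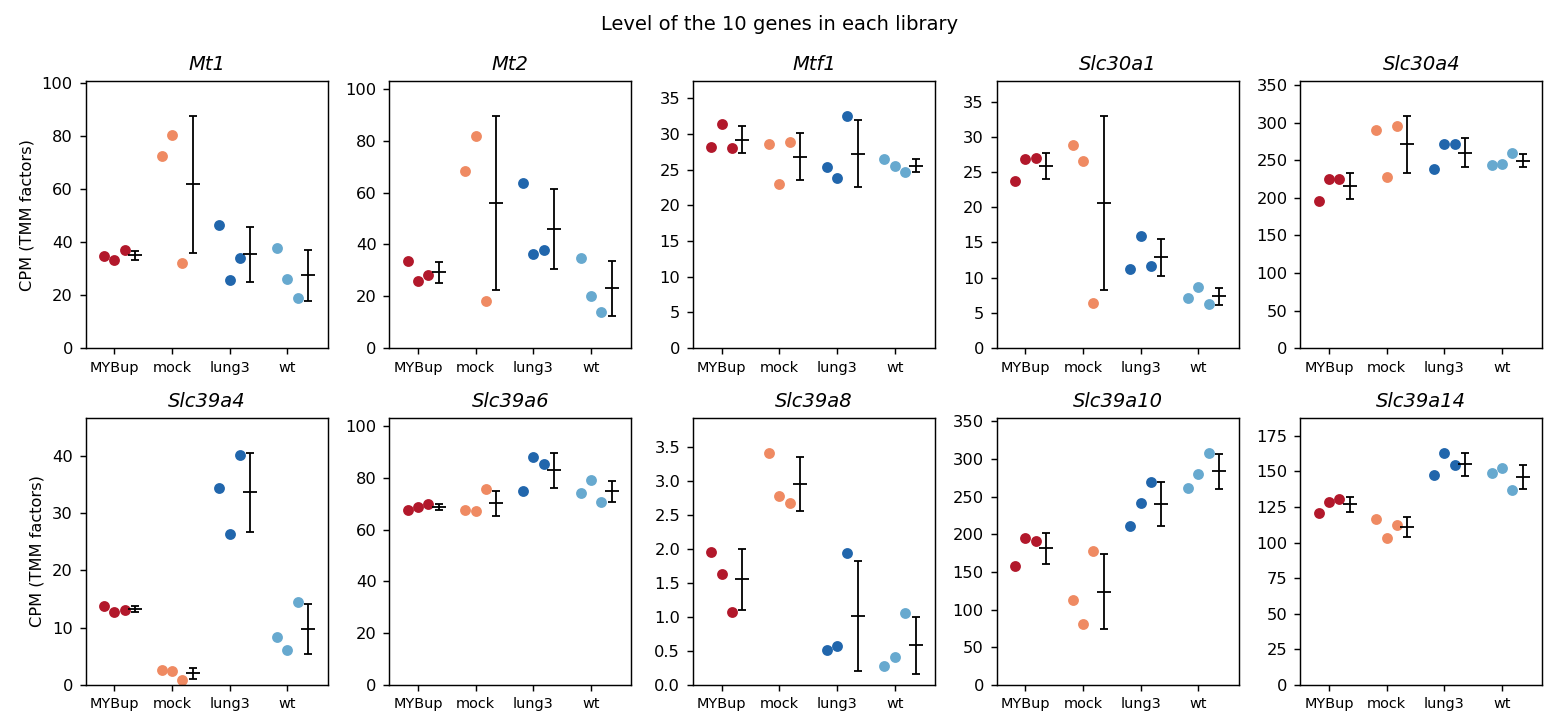
CPM (TMM factors) of each of the 10 genes in the 3 libraries of MYBup, mock, lung3 and wt cells, each panel on its own linear axis from 0. Points are libraries 1 to 3 from left to right and the bar beside them is the mean ± SD (n = 3); in Mt1, Mt2 and Slc30a1 mock replicate 3 stands far below mock replicates 1 and 2, and Slc39a4 is lowest in mock and highest in lung3 libraries.

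The sensor gene Mtf1 (chromosome 4, 124802104 to 124849800, plus strand) differed little between groups. It stood at 28.1, 31.3 and 28.1 CPM in MYBup libraries and at 28.6, 23.0 and 28.9 CPM in mock libraries. It stood at 25.3, 23.8 and 32.5 CPM in lung3 libraries and at 26.4, 25.5 and 24.7 CPM in wt libraries. The groups overlap except for MYBup and wt. Its log2 fold change was 0.12 (SE 0.12, adjusted p = 0.5) in MYBup against mock and 0.10 (SE 0.12, adjusted p = 0.707) in lung3 against wt cells, and it passed in none of the 4 comparisons, nor did the difference of effects (0.02, adjusted p = 0.947). A protein-coding gene on the other strand, 1110065P20Rik, covers 721 of its 8907 exonic bases.

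Slc30a1, the exporter ZnT1 of the plasma membrane (ENSMUSG00000037434, chromosome 1, 191906767 to 191913247, plus strand), stood at 23.7, 26.9 and 27.0 CPM in MYBup libraries. In mock libraries it stood at 28.9, 26.6 and 6.47 CPM. It stood at 11.2, 15.9 and 11.6 CPM in lung3 libraries, against 7.13, 8.72 and 6.33 CPM in wt libraries. Mock replicates 1 and 2 were at the level of the MYBup libraries and mock replicate 3 at the level of the wt libraries, with 99 counts. Means were 25.9 ± 1.87 CPM in MYBup, 20.7 ± 12.3 in mock, 12.9 ± 2.61 in lung3 and 7.39 ± 1.21 in wt cells (SD, n = 3 each).

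In MYBup against mock cells Slc30a1 had a fitted log2 change of 0.32 (SE 0.35, adjusted p = 0.541), and without mock replicate 3 the sign turned, to -0.10 (adjusted p = 0.67). Against wt cells it was higher in MYBup cells, with 1.80 (SE 0.37, adjusted p = 0.00233), and in mock cells, with 1.49 (SE 0.37, adjusted p = 0.00755). Between lung3 and wt cells it was 0.78 (SE 0.39, adjusted p = 0.277) in the fit on all libraries, although every lung3 library lay above every wt library. With the replicate block it was 0.80 (SE 0.12, adjusted p = 0.0003), at ratios of 1.57, 1.83 and 1.84 in the same-numbered pairs. Without mock replicate 3, which belongs to neither group but shares the estimate of the spread, it was 0.78 (adjusted p = 0.00984). The difference of the 2 main effects was -0.46 (adjusted p = 0.578), and -0.88 (adjusted p = 0.0119) without mock replicate 3. The antisense gene 1700034H15Rik covers 468 of the 5244 exonic bases of Slc30a1.

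Slc30a4, the vesicular exporter ZnT4 (chromosome 2, 122681233 to 122702663, minus strand), had by far more reads than Slc30a1. It stood at 195, 226 and 226 CPM in MYBup libraries, against 290, 227 and 296 CPM in mock libraries. Lung3 libraries had 239, 271 and 271 CPM, against 244, 245 and 259 CPM in wt libraries. All MYBup libraries lay below all others, with mock replicate 2 only just above them. The log2 fold change was -0.33 (SE 0.10, adjusted p = 0.0278) in MYBup against mock cells. The call was lost without mock replicate 1 (adjusted p = 0.105), mock replicate 3 (0.101), MYBup replicate 1 (0.0929) or MYBup replicate 3 (0.0558), and in a fit on the 6 libraries compared (0.0684). It did not pass in lung3 against wt cells (0.06, adjusted p = 0.782), and the difference of effects was -0.39 (adjusted p = 0.0694). Against wt cells it gave -0.21 (adjusted p = 0.119) for MYBup cells and 0.12 (adjusted p = 0.368) for mock cells. Without mock replicate 2 these last 3 values all passed, with -0.51 (adjusted p = 0.00675), -0.20 (0.0432) and 0.24 (0.0388). The transcript 4930417H01Rik on the other strand covers 130 of its 5482 exonic bases.

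The importer Slc39a4, or ZIP4 (ENSMUSG00000063354, chromosome 15, 76612383 to 76617384, minus strand), takes up zinc at the plasma membrane, and its messenger RNA is known in mouse to be more stable when zinc is scarce. It stood at 13.8, 12.8 and 13.0 CPM in MYBup libraries, against 2.56, 2.50 and 0.915 CPM in mock libraries. It stood at 34.4, 26.3 and 40.1 CPM in lung3 libraries, against 8.36, 6.11 and 14.5 CPM in wt libraries. Every lung3 library was above every other library and every mock library below. The MYBup and wt libraries overlap, since wt replicate 3 lay above the MYBup libraries and wt replicates 1 and 2 below them. The mock values rest on 54, 35 and 14 counts.

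Means of Slc39a4 were 13.2 ± 0.51 CPM in MYBup cells and 1.99 ± 0.93 CPM in mock cells (SD, n = 3 each), with a fitted log2 change of 2.70 (SE 0.35, adjusted p = 0.000124). Means were 33.6 ± 6.94 CPM in lung3 cells and 9.67 ± 4.36 CPM in wt cells (SD, n = 3 each), with a fitted log2 change of 1.81 (SE 0.28, adjusted p = 0.00259) and ratios of 4.12, 4.31 and 2.76 in the same-numbered pairs. With the replicate block this was 1.84 (SE 0.12, adjusted p = 4.96e-08). Both calls held under all 20 alternatives tried for each, with adjusted p at most 0.00132 in MYBup against mock and 0.0214 in lung3 against wt cells. The difference of the 2 effects was 0.88 (SE 0.45, adjusted p = 0.192). Mock cells were also below wt cells, with a fitted log2 change of -2.24 (SE 0.35, adjusted p = 0.000367). MYBup against wt cells gave 0.45 (SE 0.28, adjusted p = 0.226), and 0.87 (adjusted p = 0.0187) without wt replicate 3. The order of the group means was thus lung3, MYBup, wt and mock, of which MYBup and wt did not differ beyond their spread in the fit on all libraries.

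Slc39a10, the importer ZIP10 (chromosome 1, 46807544 to 46892852, minus strand), stood at 158, 195 and 191 CPM in MYBup libraries, against 113, 80.7 and 178 CPM in mock libraries. Lung3 libraries had 211, 241 and 269 CPM, against 262, 280 and 308 CPM in wt libraries. Here mock replicates 1 and 2 were the lowest of all libraries, and mock replicate 3 lay within the range of the MYBup libraries. The log2 fold change was 0.55 (SE 0.21, adjusted p = 0.0656) in MYBup against mock cells, and it passed without mock replicate 3, with 0.90 (adjusted p = 0.00103). In DESeq2 it was 0.54 (adjusted p = 0.0351) and in limma voom 0.62 (adjusted p = 0.0416). Against wt cells Slc39a10 was lower in MYBup cells, with -0.64 (SE 0.21, adjusted p = 0.0251), and in mock cells, with -1.19 (SE 0.21, adjusted p = 0.000763). The first of these was lost without MYBup replicate 1 (adjusted p = 0.0854), MYBup replicate 3 (0.0543), wt replicate 2 (0.0585) or wt replicate 3 (0.08).

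Slc39a10 in lung3 against wt cells had a log2 fold change of -0.24 (adjusted p = 0.563). With the replicate block it was -0.24 (SE 0.06, adjusted p = 0.0165), with lung3 below wt in each same-numbered pair at ratios of 0.806, 0.861 and 0.873. The difference of the 2 main effects was 0.79 (adjusted p = 0.0755), and 1.14 (adjusted p = 0.00188) without mock replicate 3.

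Slc39a14, the importer ZIP14, which also carries iron and manganese (chromosome 14, 70303469 to 70351425, minus strand), stood at 121, 129 and 131 CPM in MYBup libraries, against 117, 103 and 112 CPM in mock libraries. Lung3 libraries had 147, 163 and 154 CPM, against 149, 153 and 137 CPM in wt libraries. All MYBup and mock libraries lay below all lung3 and wt libraries. Mock cells were below wt cells by a fitted log2 change of -0.40 (SE 0.07, adjusted p = 0.00114), a call kept without any 1 library, with adjusted p at most 0.00846. MYBup cells were below wt cells by -0.20 (SE 0.07, adjusted p = 0.0439). That call was lost without mock replicate 3 (0.0518), lung3 replicate 3 (0.0549), wt replicate 1 (0.114), wt replicate 2 (0.163) or MYBup replicate 1 (0.144), 2 (0.0847) or 3 (0.0823), and with no filter on low counts (0.0782). In MYBup against mock cells it was 0.20 (adjusted p = 0.0669) and in lung3 against wt cells 0.08 (adjusted p = 0.573).

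Slc39a8, the importer ZIP8 for zinc, manganese and cadmium (chromosome 3, 135825279 to 135888572, plus strand), had the fewest reads of the 10 genes, between 5 and 72 counts a library. It stood at 1.96, 1.63 and 1.07 CPM in MYBup libraries, against 3.42, 2.78 and 2.68 CPM in mock libraries. It stood at 0.509, 0.577 and 1.94 CPM in lung3 libraries, against 0.273, 0.413 and 1.05 CPM in wt libraries. Every mock library was above every other library, and lung3 replicate 3 and wt replicate 3 stood above the other libraries of their groups. Mock cells were above wt cells, by 2.37 on the log2 scale (SE 0.45, adjusted p = 0.0014), a call kept without any 1 library, with adjusted p at most 0.00932. MYBup cells were above wt cells by 1.39 (SE 0.50, adjusted p = 0.0432).

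The call for Slc39a8 in MYBup against wt cells was lost without MYBup replicate 1 (adjusted p = 0.125), MYBup replicate 2 (0.0998), wt replicate 1 (0.143), wt replicate 2 (0.133) or mock replicate 1 (0.056). In MYBup against mock cells its log2 fold change was -0.98 (SE 0.42, adjusted p = 0.102) and did not pass, but it did in a fit on those 6 libraries, with -0.99 (adjusted p = 0.0237). For lung3 against wt cells it was 0.89 (adjusted p = 0.383), which did not pass. Lung3 over wt ratios of CPM in the 3 same-numbered pairs were 1.87, 1.40 and 1.84. They rest on only 7, 5 and 28 counts in lung3 libraries and 6, 10 and 22 counts in wt libraries. Without lung3 replicate 3 the value was -0.09 (adjusted p = 0.966), with wt replicate 3, the high one of its group, kept unpaired, and without wt replicate 3 it was 1.61 (adjusted p = 0.132). The difference of the 2 main effects was -1.87 (adjusted p = 0.0751), and it passed without wt replicate 3 (-2.59, adjusted p = 0.0193) or lung3 replicate 1 (-2.24, adjusted p = 0.0422).

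Slc39a6, the importer ZIP6 known as LIV-1 from human breast cancer (chromosome 18, 24579881 to 24603817, minus strand), was the 1 importer of the 5 that passed in no comparison. It stood at 67.6, 68.7 and 70.0 CPM in MYBup libraries and at 67.7, 67.2 and 75.8 CPM in mock libraries. Lung3 libraries had 75.1, 88.2 and 85.4 CPM and wt libraries 74.3, 79.2 and 70.8 CPM. Its log2 fold change was -0.03 (adjusted p = 0.819) in MYBup against mock cells and 0.15 (adjusted p = 0.327) in lung3 against wt cells.

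Several of the 10 genes varied widely among the 3 mock libraries. Mock replicate 3 stood at 0.421 times the mean of mock replicates 1 and 2 for Mt1, at 0.242 times for Mt2, at 0.233 times for Slc30a1 and at 0.362 times for Slc39a4, but at 1.84 times for Slc39a10. The coefficient of variation among mock libraries was 41.9% for Mt1, 59.8% for Mt2, 59.7% for Slc30a1, 46.8% for Slc39a4 and 39.9% for Slc39a10, against a median of 11.1% over all tested genes. Between 96.7% and 98.8% of tested genes varied less than each of these 5. Counting error alone would give 3.08% for Mt1, 5.27% for Slc30a1 and 17.1% for Slc39a4. Mtf1, Slc39a6 and Slc39a14 varied by 12.4%, 6.83% and 6.42% among the same 3 libraries, so the spread did not extend to all 10 genes.

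The other groups were tighter in part. Among wt libraries the coefficient of variation was 34.9% for Mt1, 46.7% for Mt2 and 45.1% for Slc39a4, against a median of 7.19% over all tested genes, and wt replicate 3 had the lowest metallothionein and the highest Slc39a4 level of the 3. There 95.7%, 97.8% and 97.7% of tested genes varied less than these, so wide metallothionein spread was not particular to mock cells. Among lung3 libraries the coefficient of variation was 29.6% for Mt1, 33.6% for Mt2, 20.2% for Slc30a1, 20.6% for Slc39a4 and 12.1% for Slc39a10, against a median of 9.16%. Among MYBup libraries it was 5.06% for Mt1, 13.7% for Mt2, 7.24% for Slc30a1 and 3.89% for Slc39a4, against a median of 7.86%. Over the same 3 mock libraries, endothelial marker sums ran between 1.63 and 1.80 CPM and Pdgfra, the 1 fibroblast marker with more than 1 count there, between 36.9 and 48.6 CPM. What differed between mock replicate 3 and the other mock libraries was not tested.

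**Figure D5:**
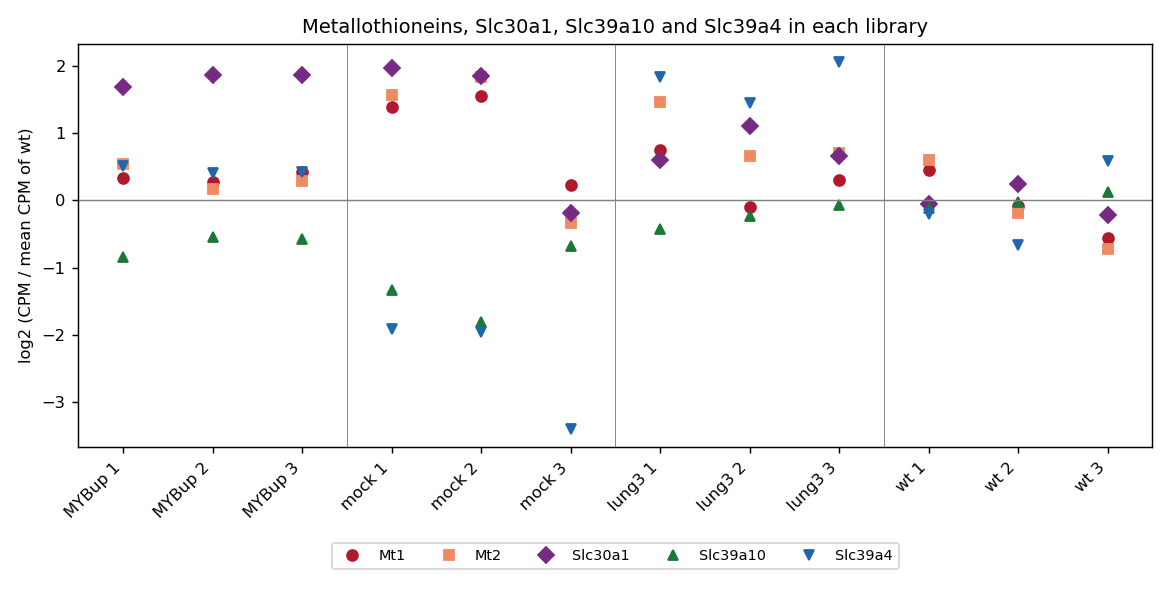
Log2 of CPM over the mean CPM of wt cells for Mt1, Mt2, Slc30a1, Slc39a10 and Slc39a4 in each of the 12 libraries, with grey lines between groups. In mock replicates 1 and 2 the metallothioneins and Slc30a1 lie above 0 and Slc39a10 and Slc39a4 below; in mock replicate 3 Mt1, Mt2 and Slc30a1 return to near 0, Slc39a10 comes nearer to 0 and Slc39a4 lies lower still.

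Among the other Slc30 genes, 4 of 8 were tested and 3 passed in MYBup against mock cells, where 26.9% of all tested genes did, with a median log2 fold change of 0.11 against 0.00. Slc30a6 and Slc30a7, zinc carriers of the Golgi and secretory vesicles, were higher in MYBup cells, at 19.3 ± 1.25 CPM against 12.8 ± 2.18 CPM in mock cells for Slc30a6 (log2 fold change 0.59, adjusted p = 0.00271). In MYBup cells Slc30a7 averaged 56.0 ± 4.32 CPM and in mock cells 43.8 ± 5.46 CPM (0.35, adjusted p = 0.0303; SD, n = 3 each). Slc30a5, the partner of Slc30a6 in a heterodimer, was lower in MYBup cells, at 64.4 ± 2.20 CPM against 78.1 ± 2.20 CPM in mock cells (-0.28, adjusted p = 0.0168). Mock cells were below wt cells for Slc30a6 (-0.47, adjusted p = 0.00698) and Slc30a7 (-0.45, adjusted p = 0.00638). MYBup against wt cells gave 0.12 (adjusted p = 0.435) and -0.09 (adjusted p = 0.52) for the same genes. For Slc30a5, MYBup cells were below wt cells (-0.38, adjusted p = 0.00181), and mock against wt cells gave -0.10 (adjusted p = 0.301). The Slc30a7 call was lost without mock replicate 1, mock replicate 2, MYBup replicate 2 or MYBup replicate 3, with adjusted p up to 0.11, and in a fit on the 6 libraries compared (0.056), and that of Slc30a5 without MYBup replicate 1 (0.0506) or 2 (0.0519). Of these 4, 0 passed in lung3 against wt cells with edgeR, where 5.36% of all tested genes did, and 0 with DESeq2 or limma voom, and 0 had an unadjusted p under 0.05 in edgeR.

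Among the other Slc39 genes, 6 of 9 were tested and 3 were higher in MYBup than in mock cells, where 14.3% of all tested genes were higher, with a median log2 fold change of 0.40 against 0.00. The remaining 3 did not pass. Slc39a1, an importer of the plasma membrane, averaged 102 ± 8.85 CPM in MYBup libraries and 75.2 ± 5.20 in mock libraries (log2 fold change 0.45, adjusted p = 0.00328). Slc39a7 averaged 151 ± 7.78 CPM in MYBup libraries and 111 ± 0.93 in mock libraries (0.45, adjusted p = 0.00396). Slc39a11 averaged 26.8 ± 1.46 CPM in MYBup libraries and 20.9 ± 1.18 in mock libraries (0.36, adjusted p = 0.0336; SD, n = 3 each). The Slc39a11 call was lost without mock replicate 1 or 3 or any 1 MYBup library, with adjusted p up to 0.0952. Of the 6, 0 passed in lung3 against wt cells with edgeR, DESeq2 or limma voom, 2 had an unadjusted p under 0.05 in edgeR, and 2 passed with the replicate block, where 17.9% of all genes did. Against wt cells, the libraries of which are shared with comparisons above, Slc39a1 was lower in mock cells (-0.51, adjusted p = 0.000978) and Slc39a7 was too (-0.57, adjusted p = 0.000622), while MYBup against wt cells gave -0.06 (adjusted p = 0.613) and -0.12 (adjusted p = 0.352) for the same genes. The transcript Gm20427 covers 2084 of the 2584 exonic bases of Slc39a7 on the same strand.

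Among 5 reported targets of MTF-1 outside the 10 genes, Csrp1, a LIM domain protein, and Ndrg1, a gene of stress response, passed in both main comparisons and were higher each time. These 2 of 5 stand beside 26.9% of all tested genes passing in MYBup against mock and 5.36% in lung3 against wt cells. Csrp1 averaged 145 ± 11.4 CPM in MYBup libraries and 81.9 ± 11.0 in mock libraries (log2 fold change 0.83, adjusted p = 7.02e-05), and 178 ± 9.80 CPM in lung3 and 122 ± 8.62 CPM in wt cells (0.54, adjusted p = 0.00729). Ndrg1 averaged 312 ± 14.4 CPM in MYBup libraries and 258 ± 16.2 in mock libraries (0.27, adjusted p = 0.0257), a call lost without mock replicate 1 or 3 or MYBup replicate 1 or 3, with adjusted p up to 0.091. It averaged 400.0 ± 26.2 CPM in lung3 and 262 ± 21.4 CPM in wt cells (0.61, adjusted p = 0.00115; SD, n = 3 each). Against wt cells Csrp1 was lower in mock cells (-0.58, adjusted p = 0.000649), while MYBup against wt cells gave 0.25 (adjusted p = 0.0617). For Ndrg1, MYBup cells were above wt cells (0.25, adjusted p = 0.0273), and mock against wt cells gave -0.02 (adjusted p = 0.86). Gclc, Selenow and Selenoh did not pass in either main comparison. The median of the 5 was 0.10 in MYBup against mock and -0.02 in lung3 against wt cells.

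Genes of copper and iron were set beside those of zinc because metallothioneins bind copper and several of the Slc39 importers carry iron or manganese. The shares over all tested genes were again 26.9% in MYBup against mock, and 5.36%, or 17.9% with the replicate block, in lung3 against wt cells. Of 8 copper genes tested, 1 passed in MYBup against mock cells, the superoxide dismutase gene Sod1 (0.27, adjusted p = 0.0499), a call kept under 5 of 20 alternatives, and lost without each library of MYBup or wt, mock replicate 1, mock replicate 3 or lung3 replicate 3, with adjusted p up to 0.202. Of the 8, 0 passed in lung3 against wt cells with edgeR or limma voom and 1 in DESeq2, where 8.14% of all genes did, 4.35% higher and 3.79% lower. Of the same 8, 3 had an unadjusted p under 0.05 in edgeR, and 3 passed with the replicate block. Of 12 iron and manganese genes tested, 1 was higher and 3 were lower in MYBup than in mock cells, and 1 was higher and 1 lower in lung3 than in wt cells, a count of 2 that became 4 with the replicate block. The 4 of 12 in MYBup against mock cells are near the share over all genes.

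The iron importer Slc11a2 passed in opposite directions, with 28.6 ± 0.88 CPM in MYBup libraries and 46.1 ± 3.71 in mock libraries (log2 fold change -0.69, adjusted p = 0.00034) and 92.7 ± 8.75 CPM in lung3 and 57.5 ± 6.46 CPM in wt cells (0.69, adjusted p = 0.00166; SD, n = 3 each). Steap3, an endosomal iron reductase, was lower in MYBup than in mock cells (-0.84, adjusted p = 0.00469) and in lung3 than in wt cells (-1.10, adjusted p = 0.00759). Its means were 6.25 CPM in MYBup, 11.1 in mock, 3.57 in lung3 and 7.74 in wt cells, and MYBup and wt libraries overlap. Aco1, whose protein binds iron-responsive elements in messenger RNAs, was lower in MYBup than in mock cells (-0.67, adjusted p = 5.42e-05). Its means were 70.3 CPM in MYBup, 111.5 in mock, 88.4 in lung3 and 83.95 in wt cells. Every mock library lay above every other library, and every MYBup library below. Ncoa4, the receptor for ferritin breakdown, was higher in MYBup than in mock cells (0.42, adjusted p = 0.00544). Its means were 47.1 CPM in MYBup, 35.1 in mock, 47.7 in lung3 and 47.1 in wt cells. MYBup cells were thus level with the untransfected cells, and every mock library lay below every other library.

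Likeness of pattern was taken as Pearson's r of log2 CPM over the 12 libraries, which share their 4 groups, among 9024 genes whose log2 CPM averaged 3 or more, and is given as a description. The genes most like Mt1 were Smg9 (r = 0.939), Gla (0.886) and Mt2 (0.881). Those most like Slc30a1 were Ldah (0.92), Dctn4 (0.903) and Epc1 (0.896), and those most like Slc39a4 were Gpsm3 (0.964), Mknk1 (0.963) and Unc13b (0.958). Gpsm3 averaged 11.8 CPM in MYBup, 2.47 in mock, 16.2 in lung3 and 6.95 in wt cells. Mknk1 averaged 14.4 CPM in MYBup, 11.3 in mock, 17.4 in lung3 and 13.6 in wt cells. Unc13b averaged 11.9 CPM in MYBup, 3.14 in mock, 18.1 in lung3 and 11.0 in wt cells. All 3 had the order of groups of Slc39a4, which a choice by likeness over these same libraries favours.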

How the data were processed

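RNA of 4T1 cells was sequenced in 12 libraries, from total RNA isolated with an RNeasy Plus Mini kit and prepared with a TruSeq RNA kit, per the labels' protocols. The authors deposited 1 table of unnormalised read counts for 22880 Ensembl identifiers, of which 22647 matched a symbol in GENCODE M21 (GRCm38). STAR, edgeR and GRCm38 are named in the submitters' processing notes; tool versions, the counter, gene models and strandedness remain not given in the sources used here. All 2708 values above 4 digits end in zeros past the first 4, and 0 columns of the table were left unused.

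Tests used edgeR 4.0.16 in R 4.3.3 (TMM factors, filterByExpr, quasi-likelihood F test, 1 fit on all 12 libraries with a term per group), with Benjamini-Hochberg adjustment over 11291 genes and a threshold of 0.05; SE is the absolute log2 fold change over the square root of F. CPM is the count scaled to TMM-adjusted library size. DESeq2 1.42.0, limma 3.58.1 voom, RLE size factors, no filter, replicate blocks, fits on 6 libraries and leaving out libraries were alternatives. The scripts were tested on simulated data. Figures used matplotlib 3.10.9 in Python 3.11.15. Promoter sequences are from RefSeq (GRCm38.p6).

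Named were all 10 genes, Myb, up to 4 passing genes per list and main comparison from 6 lists, and the 3 genes most like each of Mt1, Slc30a1 and Slc39a4. The 10 genes and the lists were chosen with earlier results of these data known.

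Pairing was checked by correlating deviations from group means. Same-numbered lung3 and wt libraries correlated at 0.329, 0.294 and 0.309, and differently numbered ones between -0.212 and -0.093. Deviations within a group cancel out, so the negative values largely follow from the positive ones and add no evidence of pairing. The numbers were taken as pairs only as a hint from the data, since the labels state none. The blocked p-values thus rest on a pairing chosen from these same data. Between MYBup and mock cells, libraries of like number gave -0.191, -0.496 and 0.382. Libraries of unlike number there ranged from -0.541 (MYBup replicate 1, mock replicate 3) to 0.636 (MYBup replicate 1, mock replicate 2). MYBup replicate 2 and mock replicate 3 gave 0.406. Values above those of the same-numbered lung3 and wt libraries can therefore arise without a shared number. Libraries of a group differed by more than sampling noise (chi-square per gene 2.24 to 36.1), so none matched another within that noise. The lowest value was that of MYBup replicates 2 and 3, and every other pair had at least 6.33. This cannot tell repeat preparations of the same culture from separate cultures. Depth limits precision most for Slc39a8; the coefficients of variation from counting alone cover counting error only.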

Additional observations from a re-analysis of the deposited data

Results flagged for a closer look

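The effect in MYBup against mock cells differed from that in lung3 against wt cells for 8 of 24 genes, by the test of the difference itself in edgeR's quasi-likelihood test with Benjamini-Hochberg adjustment, where 19.9% of all tested genes had such a difference. The 24 are Myb, the 10 zinc genes, of which Mt2 alone differed, and 13 genes of the other lists named because they passed in a main comparison, of which 6 differed. Nothing is read from the share, since passing in a main comparison bears on the difference. Slc39a3, which passed in neither main comparison and is named here after its value was seen, differed too (0.87, adjusted p = 0.0205). Myb itself, added in MYBup cells, differed by 3.78 (adjusted p = 9.41e-07), with a lower level in lung3 than in wt cells (-0.89, adjusted p = 0.0159). The metallothionein Mt2 differed by -1.95 on the log2 scale (adjusted p = 0.0415), with every lung3 library above every wt library and 2 of 3 mock libraries above every MYBup library. Among the zinc transporters the differences were 0.59 for Slc30a6 (adjusted p = 0.0242) and 0.55 for Slc39a7 (adjusted p = 0.0126). For Sod1 it was 0.49 (adjusted p = 0.0223). Among iron genes they were -1.38 for Slc11a2 (adjusted p = 5.55e-05), -0.74 for Aco1 (adjusted p = 0.000554) and 0.40 for Ncoa4 (adjusted p = 0.0493). Those of Myb, Slc11a2, Aco1 and Slc39a7 passed under all 18 alternatives run for each. That of Mt2 was lost without mock replicate 1 or 2, MYBup replicate 2 or 3, wt replicate 2 or 3, or any 1 lung3 library (adjusted p up to 0.103), and in DESeq2 (0.0502) and limma voom (0.0856). That of Slc30a6 was lost without mock replicate 1, MYBup replicate 1, wt replicate 1 or 2 or lung3 replicate 3 (up to 0.0659), and without mock replicate 3 and lung3 replicate 3 together (0.0962). That of Sod1 was lost without mock replicate 1, MYBup replicate 3, wt replicate 1 or lung3 replicate 2 or 3 (up to 0.0603), and without the same pair of libraries (0.0705). That of Ncoa4 held under 3 of 18 alternatives. It was lost with RLE size factors (adjusted p = 0.0546), no filter on low counts (0.066), the replicate block (0.0674), without both of those libraries (0.086), and without any 1 library other than mock replicate 1 (up to 0.121).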

How the results depend on the processing

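For the 10 genes, 877 values under other settings kept direction and side of the threshold, 42 passed newly, 46 no longer passed and 13 changed sign; for the other named genes, 437 calls held and 69 were lost. Beside 2 genes called in MYBup against mock, no filter gave 4, leaving out mock replicate 3 and lung3 replicate 3 together gave 4, and leaving out each library gave 1 to 4. In lung3 against wt, beside 1, the 6 libraries gave 2, the 6 with the replicate block 5, leaving out both number 3 libraries 2, and leaving out each library 1 to 2. In MYBup against wt, beside 4, the replicate block on 12 libraries gave 2 and leaving out each library 1 to 5. Of the difference of effects, beside 1, no filter gave 4, the replicate block 3, DESeq2 2, limma voom 0 (5 had an unadjusted p under 0.05 in edgeR), leaving out both number 3 libraries 4, and leaving out each library 0 to 4. Over all genes, beside 3038 in MYBup against mock, the 6 libraries with the replicate block gave 1479, and beside 605 in lung3 against wt, the block gave 1985, DESeq2 919 and leaving out each library 237 to 853. Leaving out both number 3 libraries turned Slc30a1 (-0.10) and Slc39a6 (0.03) in MYBup against mock, and Mtf1 (-0.05) and Slc39a8 (-0.09) in lung3 against wt. Without each library in turn Slc30a1 ranged from -0.10 to 0.65, Slc39a6 from -0.06 to 0.03, Mtf1 from -0.06 to 0.18 and Slc39a8 from -0.09 to 1.61 in those comparisons, and the Mtf1 difference of effects from -0.08 to 0.17. The cause was not tested, except that leaving out mock replicate 3 alone turned Slc30a1 and Slc39a6, and leaving out lung3 replicate 3 alone, with wt replicate 3 kept, turned Mtf1 and Slc39a8. With the block on those 6 libraries, Slc30a4 in MYBup against mock was not called (adjusted p = 0.136); MYBup and mock share only numbers.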

Other observations

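The ratio of Mt1 to Mt2 counts was looked at after the values had been seen, and is given without a test. It was 1.03, 1.29 and 1.31 in MYBup libraries and 1.06, 0.985 and 1.77 in mock libraries. It was 0.731, 0.708 and 0.899 in lung3 libraries and 1.08, 1.29 and 1.34 in wt libraries. In lung3 cells Mt2 thus had more counts than Mt1 in 3 of 3 libraries, and among the other 9 libraries this was so in mock replicate 2 only.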
